A study of Mus musculus and Homo sapiens with 4 samples.

Results

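The oligoadenylate synthetase (Oas) family was described in mouse embryonic fibroblasts (MEFs) through 8 genes: Oas1a, Oas1b, Oas1c, Oas1g, Oas2, Oas3, Oasl1 and Oasl2. The rule took the rows of the fibroblast data whose symbol is one of these, and found 8 of 23329 entries. The members were chosen by their expression in these same 2 libraries, so their levels and ratios are given as a description with no test. Both MEF groups were cultures from E13.5 embryos of strain C57BL/6 at passages 2 to 3, grown in a mixture of DMEM and Ham's F12 with 10% serum and with no further treatment named. One group was wild type (WT) and the other came from NEAT1 KO mice, which lack a nuclear long non-coding RNA, and each was sequenced as 1 poly-A+ library. The labels give neither the number of embryos behind a culture nor the allele of the KO. The series also holds 1 library each of VCaP, a human prostate cancer cell line, and of VCaP overexpressing ERα.

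Oas enzymes are switched on by interferons. Once bound to double-stranded RNA, a usual sign of viral infection, they join ATP into short chains of adenylate with unusual linkages, called 2-5A. 2-5A sets off the cutting of viral and cellular RNA, which stops protein synthesis. In the mouse, Oas1 has multiplied into a tandem family in which Oas1a and Oas1g keep the synthetase activity and several other copies have lost it.

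With 1 library per group there is no spread between replicates, and no P-value is given. Values are the deposited RPKM (read numbers divided by transcript length and by library depth), and a log2 ratio is log2((KO + 1)/(WT + 1)) in RPKM, which understates the change of low entries. Neat1, the targeted RNA, had 29.5 RPKM in WT and 2.01 RPKM in KO, in the direction of the labels. The 12 fibroblast markers examined, among them the collagen gene Col1a1, all exceeded 4 RPKM in both libraries. Of these 12, 3 had a log2 ratio above 1 (Lum at 1.92, Dcn at 1.64 and Pdgfra at 1.51), and the lowest was Fn1 at -0.56. All 11 macrophage markers were higher in KO, as were 30.1% of all entries, with a summed level of 22.6 RPKM in WT and 55.2 RPKM in KO. Of these, Lyz2 had 13.9 and 34.7 RPKM, Cd68 had 2.79 and 7.26 RPKM, Cd14 had 1.67 and 4.73 RPKM, Fcer1g had 0.944 and 2.68 RPKM, and Emr1, which encodes F4/80, had 0.482 and 1.37 RPKM. Csf1r had 0.521 and 0.775 RPKM and Ptprc 0.0449 and 0.0813 RPKM. Mrc1 was nearly equal, with 0.0804 and 0.0817 RPKM, and Aif1 had 0.0358 and 0.0763 RPKM. Of the 11 macrophage markers, 5 were below 1 RPKM in both libraries. The part of these fibroblast and macrophage markers in the Oas values was not tested. The summed levels of endothelial, epithelial and lymphocyte markers were at most 1.15 RPKM. Of 39 entries on chromosome Y, 0 reached 1 RPKM in WT and 3 did in KO, so the sex of the embryos and the genotype cannot be told apart. In bulk RNA, fewer cells expressing a gene and less RNA per cell cannot be told apart either.

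Windows of the reference genome around the gene starts are shown first, because several members carry the same interferon-type element there. RefSeq windows of 300 bases (250 before and 50 after the start, build GRCm38.p6) were on hand for 6 of the 8 members. They were searched on both strands for GAAANNGAAA, the core of the interferon-stimulated response element that interferon regulatory factors bind. Overlapping matches were allowed. The motif was in 1131 of all 32851 windows (3.44%). It was in the windows of Oas1a, Oas1c, Oas1g and Oas3. In Oas1a, Oas1g and Oas1c it formed a pair of overlapping matches in 1 run of 16 bases, identical in all 3 windows. Capitals mark the matched bases, and each line reads 5′ to 3′.
Oas1a, chr5:120907476-120907775, minus strand: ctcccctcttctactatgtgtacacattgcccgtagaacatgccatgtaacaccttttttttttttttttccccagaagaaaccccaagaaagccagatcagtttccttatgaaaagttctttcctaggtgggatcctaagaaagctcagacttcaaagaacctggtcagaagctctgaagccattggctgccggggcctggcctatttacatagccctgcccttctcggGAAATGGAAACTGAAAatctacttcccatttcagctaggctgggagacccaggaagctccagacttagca
Oas1g, chr5:120887564-120887863, minus strand: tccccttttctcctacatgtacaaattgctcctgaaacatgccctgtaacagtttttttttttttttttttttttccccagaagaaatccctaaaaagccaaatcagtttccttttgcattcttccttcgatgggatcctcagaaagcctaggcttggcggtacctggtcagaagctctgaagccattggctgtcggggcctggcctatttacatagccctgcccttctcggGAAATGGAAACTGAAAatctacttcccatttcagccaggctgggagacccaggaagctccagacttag
Oas1b and Oas1c, chr5:120812465-120812764, plus strand: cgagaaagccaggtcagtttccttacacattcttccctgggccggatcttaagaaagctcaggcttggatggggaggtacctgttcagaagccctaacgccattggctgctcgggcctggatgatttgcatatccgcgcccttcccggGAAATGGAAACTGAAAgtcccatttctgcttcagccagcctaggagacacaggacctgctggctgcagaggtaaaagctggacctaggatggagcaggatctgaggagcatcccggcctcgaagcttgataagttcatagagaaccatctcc
Oas3, chr5:120777610-120777909, minus strand: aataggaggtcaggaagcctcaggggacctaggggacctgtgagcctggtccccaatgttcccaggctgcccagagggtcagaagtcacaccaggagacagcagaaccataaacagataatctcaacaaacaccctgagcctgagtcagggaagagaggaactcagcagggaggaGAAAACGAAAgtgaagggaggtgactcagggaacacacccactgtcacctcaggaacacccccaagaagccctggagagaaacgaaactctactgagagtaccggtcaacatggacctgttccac
The third of these is the Oas1c window turned to the plus strand, because it also holds the start of Oas1b. The genes stand head to head, with Oas1b starting at 120812635 on the plus strand, Oas1c starting at 120812514 on the minus strand, and 120 bases between the starts. Read towards Oas1b, the run of 16 bases lay 22 to 7 bases before the Oas1b start. In Oas1a it lay 20 to 5 bases before the start and in Oas1g 18 to 3 bases before it, on the gene's own strand in both. Read from Oas1c, the same bases lay on the opposite strand, 114 to 99 bases before the start. Over 96 bases centred on the run, Oas1a and Oas1g were 97.9% identical and each was 75.0% identical to the Oas1b side. In Oas3 a single match lay 75 to 66 bases before the start.

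**Figure D1:**
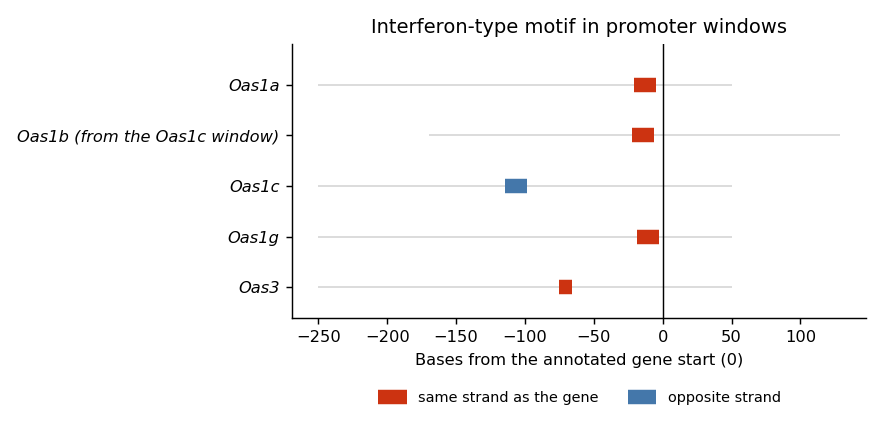
Position of the interferon-type motif in bases from the annotated gene start (x axis, 0 is the start) for the Oas genes whose window holds it. Red marks a match on the gene's own strand and blue on the opposite strand, and grey lines show the window searched. In Oas1a, Oas1b and Oas1g the run ends 3 to 7 bases before the start, whereas for Oas1c it lies on the other strand, 114 to 99 bases before the start.

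The windows of Oasl1 and Oasl2 held no match. That of Oasl2, shown because this gene had the largest log2 ratio of the family, is the following.
Oasl2, chr5:114896684-114896983, plus strand: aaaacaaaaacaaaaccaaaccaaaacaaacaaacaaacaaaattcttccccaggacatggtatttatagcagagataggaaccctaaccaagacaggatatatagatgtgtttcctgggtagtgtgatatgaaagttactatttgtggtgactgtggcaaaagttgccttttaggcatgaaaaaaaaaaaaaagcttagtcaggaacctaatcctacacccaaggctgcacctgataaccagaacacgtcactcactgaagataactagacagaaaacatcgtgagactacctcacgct
No match says only that these letters are not in this window. Windows for Oas1b and Oas2 themselves were not analysed here.

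All 8 members had a higher level in KO than in WT, as did 30.1% of all entries and 39.1% of those that reached 1 RPKM in both. A log2 ratio above 2 was reached by 3 of the 8 (Oasl2, Oas1a and Oasl1), where 0.223% of all entries reached it. This count depends on the pseudocount, since with 0.1 RPKM in place of 1 it was 7 of the 8, with 118 of all entries above 2. The study also used a log2 fold change above 2 for its cell lines, but the paper's text names no pseudocount, so the measures may differ. Above 1 were 5 of the 8, with Oas1b and Oas1g, against 0.977% of all entries, and below -1 were 0 of the 8, against 0.334%. The median log2 ratio of the members was 1.56, against 0 over all entries and -0.059 over the 10888 entries that reached 1 RPKM in WT and in KO. These shares restate the choice of the members. Summed over the family, the level was 5.33 RPKM in WT and 64.8 RPKM in KO.

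**Figure D2:**
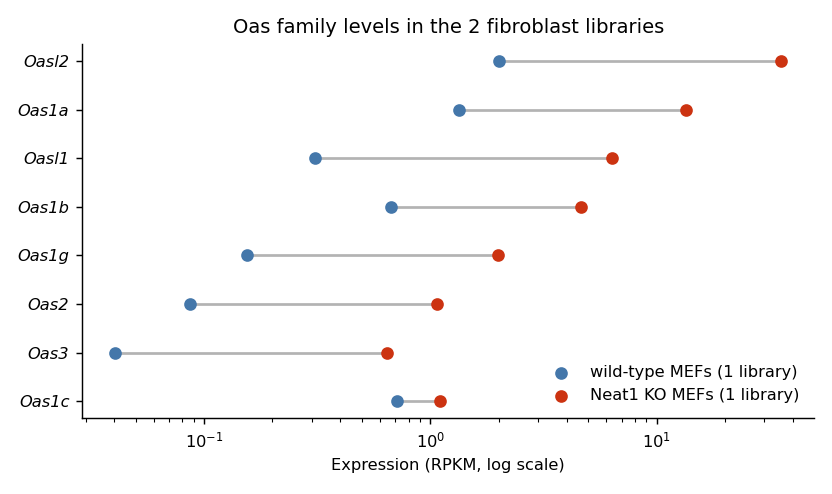
Level of each member in RPKM (x axis, log scale) in the WT library (blue) and the KO library (red), 1 library each, with genes ordered by log2 ratio. Every red point lies to the right of its blue point, from Oasl2 (2.02 to 35.6 RPKM) to Oas1c (0.711 to 1.10 RPKM).

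RPKM values of low entries recur in whole multiples of what 1 read is worth, so the reads behind each value could be estimated from transcript lengths. On this estimate the WT library had about 63000000 reads and the KO library about 59600000. Even numbers of reads made up 57.9% of the low entries in WT and 60.7% in KO, where whole read pairs would give even numbers only. That reads were counted in pairs is therefore an assumption. The intervals given here for the ratio of RPKM values are exact binomial 95% intervals on estimated pairs. They cover counting error only, and not the difference between cultures.

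The Oas1 genes, which encode the enzymes with a single synthetase unit, showed both large and small differences. Oas1a, an active synthetase (chromosome 5, 120896257 to 120907525), had 1.34 RPKM in WT and 13.47 RPKM in KO. Its log2 ratio was 2.63. The ratio of the RPKM values was 10.1 (interval 8.02 to 12.9), on about 79 read pairs in WT and 756 in KO. Oas1g, the other active copy (120876142 to 120887598), had 0.154 RPKM in WT and 1.99 RPKM in KO. The log2 ratio was 1.37. Its RPKM ratio of 12.9 (interval 6.49 to 26.5) rested on about 10 read pairs in WT and 117 in KO, so that the smaller log2 ratio of Oas1g than of Oas1a went with its lower level and not with a smaller fold. The values of these genes are not independent. Their reading frames were 96.7% identical, and 57.6% of the 50-base stretches of the Oas1a transcript also occur in another gene, all of them in Oas1g. How the authors placed reads that match both is not given in the sources used here, so the split between Oas1a and Oas1g is uncertain.

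Oas1b, known as the flavivirus resistance gene of wild mice, had 0.672 RPKM in WT and 4.61 RPKM in KO (120812635 to 120824160), a log2 ratio of 1.75. Its RPKM ratio was 6.86, with an interval of 4.86 to 9.84. GENCODE lists this locus as a polymorphic pseudogene, because the reference strain, C57BL/6, carries an early stop codon. The longest reading frame of its transcript ended after 252 codons, against 367 in Oas1a and in Oas1g. The 63 bases around that stop are shown with the aligned stretches of the other Oas1 members, and capitals mark the stop codon of Oas1b and the codon at the same place in the others.
Oas1b: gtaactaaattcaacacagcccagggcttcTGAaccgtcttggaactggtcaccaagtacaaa
Oas1a: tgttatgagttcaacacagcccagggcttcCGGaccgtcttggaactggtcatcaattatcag
Oas1g: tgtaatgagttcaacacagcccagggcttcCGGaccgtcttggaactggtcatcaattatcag
Oas1c: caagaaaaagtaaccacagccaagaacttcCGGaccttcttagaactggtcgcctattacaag
In the other 3 members this codon is CGG and the frame reads on. The cultures were labelled with the strain of this reference, but the stop itself cannot be read from RPKM values.

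Oas1c, which shares the interval of 120 bases with Oas1b, had the smallest difference of the family. Its level was 0.711 RPKM in WT and 1.10 RPKM in KO (120800199 to 120812514), a log2 ratio of 0.30. The RPKM ratio was 1.55, on about 51 read pairs in WT and 75 in KO. Its interval, 1.08 to 2.26, lay below the intervals of all other 7 members, the lowest of which began at 4.86. In WT Oas1c was near Oas1b in level (0.711 and 0.672 RPKM), whereas in KO Oas1b was higher (4.61 against 1.10 RPKM). Its share of the family's summed RPKM was 13.3% in WT and 1.70% in KO. About 10.7% of the 50-base stretches of its transcript occur in other genes, mostly in Oas1e.

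**Figure D3:**
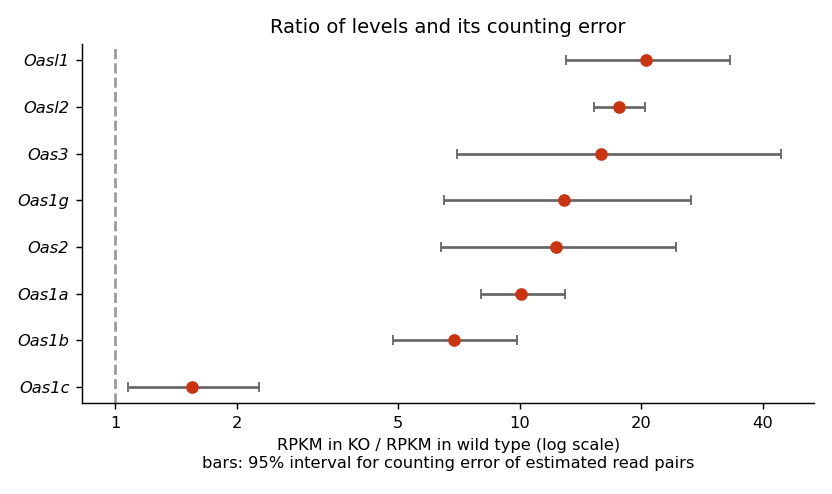
Ratio of the RPKM value in KO to that in WT (x axis, log scale) for each member, with bars for the 95% interval of counting error on estimated read pairs. The dashed line marks equal levels. Oas1c (1.55) stands apart from the other 7 genes, which lie between 6.86 (Oas1b) and 20.5 (Oasl1).

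The larger enzymes were the lowest members. Oas2, which carries 2 synthetase units, had 0.0866 RPKM in WT and 1.07 RPKM in KO (120730333 to 120749848), a log2 ratio of 0.93. Its RPKM ratio was 12.3 (interval 6.38 to 24.3). Oas3, which carries 3 units and binds long double-stranded RNA, had 0.0404 RPKM in WT and 0.643 RPKM in KO (120753098 to 120777659), a log2 ratio of 0.66. Its RPKM ratio of 15.9 (interval 7.01 to 44.4) rested on about 6 read pairs in WT and 90 in KO. Both genes thus fell short of a log2 ratio of 1 while their RPKM ratios exceeded that of Oas1a (10.1), with overlapping intervals. The reading frame of Oas3 held 1138 codons and that of Oas2 742.

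The Oas-like genes, whose proteins end in ubiquitin-like domains, had the largest RPKM ratios of the family, with intervals that overlapped those of Oas3, Oas2 and Oas1g. Oasl2, which keeps the synthetase activity, had 2.02 RPKM in WT and 35.6 RPKM in KO (114896934 to 114912245), a log2 ratio of 3.60 that ranked 7 of all 23329 entries. Its RPKM ratio was 17.6 (interval 15.2 to 20.4), on about 199 and 3310 read pairs. Oasl1, which lacks that activity and is known as an inhibitor of Irf7 translation, had 0.310 RPKM in WT and 6.35 RPKM in KO (114923240 to 114937911). Its log2 ratio was 2.49 and its RPKM ratio 20.5 (interval 13.1 to 33.1). Oasl2 made up 37.9% of the family's summed RPKM in WT and 54.9% in KO. Neither transcript shared a 50-base stretch with another gene, nor did that of Oas2.

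By level, which RPKM allows to be compared between genes, the order in WT was Oasl2, Oas1a, Oas1c, Oas1b, Oasl1, Oas1g, Oas2 and Oas3. In KO it was Oasl2, Oas1a, Oasl1, Oas1b, Oas1g, Oas1c, Oas2 and Oas3. The highest and the 2 lowest genes were the same in both libraries, and Oas1c moved from the third place to the sixth. Neighbours such as Oas1c and Oas2 in KO (1.10 and 1.07 RPKM) have no replicate spread by which to separate them. Even in KO the family was not abundant, with Oasl2 ranking 1881 of all entries by level and Oas1a 4485.

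The other mouse Oas1 copies, Oas1d, Oas1e, Oas1f and Oas1h, were all listed at 0 in WT. In KO Oas1d and Oas1e were again at 0, Oas1f had 0.0226 RPKM and Oas1h had 0.0496 RPKM, which is about 1 and 3 read pairs. A count of 0 allows up to 0.0471 RPKM of Oas1d and 0.0529 RPKM of Oas1e in WT, taken as 3 read pairs, so no difference was detectable at this depth. The windows of Oas1f and Oas1h held no match to the motif.

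Both Oas clusters lie on chromosome 5. The cluster of Oas1, Oas2 and Oas3 spans 120730333 to 120921647 (191315 bases), and that of Oasl1 and Oasl2 spans 114896934 to 114937911. The members, chosen by these values, had log2 ratios from 0.30 to 3.60. The other Oas1 copies were at 0 (Oas1d and Oas1e), 0.032 (Oas1f) and 0.070 (Oas1h), inside the range of the genes around the clusters. Of the 21 entries outside the family within 200 kb of a cluster, 0 had a log2 ratio beyond 1 in either direction. Among these 21, 13 reached 1 RPKM. Of all entries, only 0.977% were above 1 and 0.334% below -1, so that this count is no result about the neighbours. Their log2 ratios ran from -0.26 to 0.10, with a median of -0.020. Next to Oasl1, 2210016L21Rik had 18.3 RPKM in WT and 18.9 RPKM in KO. Dtx1, a Notch regulator beside Oas2, had 0.0858 and 0.0991 RPKM, and Rph3a beyond Oas1d was listed at 0 in both. Within the Oas1 cluster itself, Oas1f and Oas1h, at or below 0.0496 RPKM in both libraries, stand between Oas1b and Oas1g, which both exceeded a log2 ratio of 1.

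**Figure D4:**
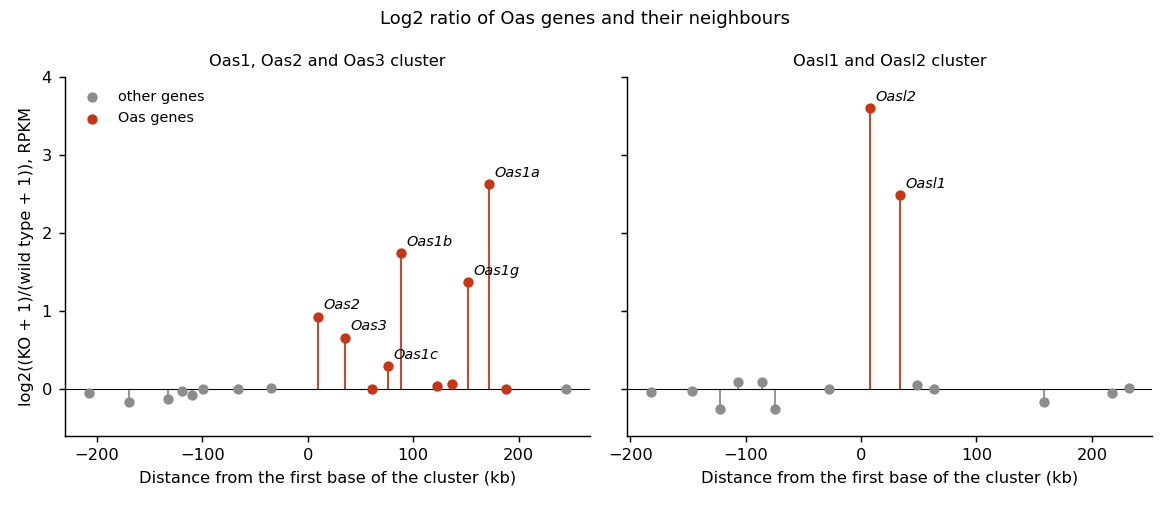
Log2 ratio of KO over WT (y axis) against the distance of each gene's middle from the first base of its cluster in kb (x axis), for the cluster of Oas1, Oas2 and Oas3 (left) and that of Oasl1 and Oasl2 (right). Oas genes are red and the other genes within 200 kb grey. All 21 grey points lie between -0.26 and 0.10, and the named red points lie between 0.30 and 3.60.

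Downstream of the synthetases, 3 genes were examined that inhibit the 2-5A pathway or degrade 2-5A. Abce1, an inhibitor of the pathway and a ribosome recycling factor, had 37.1 RPKM in WT and 27.6 RPKM in KO, with a log2 ratio of -0.41. The phosphodiesterases that degrade 2-5A were Pde12, with 12.4 and 9.84 RPKM, and Akap7, with 0.978 and 0.793 RPKM. All 3 genes were lower in KO, by less than 1 on the log2 scale, as were 60.9% of the entries that reached 1 RPKM in both libraries, so that this direction is no result about them. The gene of the related nucleotidyltransferase cGAS, listed as E330016A19Rik, had 1.93 and 1.71 RPKM.

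Upstream, interferon transcripts were at or near 0. Of 19 interferon genes with an entry, 15 were listed at 0 in both libraries, as were 6226 of all 23329 entries. None of the 19 exceeded 0.0758 RPKM. Ifnb1, the interferon made by fibroblasts, was at 0 in WT and at 0.0758 RPKM in KO, about 2 read pairs. The 6 receptor genes had log2 ratios from -0.038 to 0.45, with Ifnar1 at 15.2 and 18.4 RPKM and Ifnar2 at 11.1 and 15.6 RPKM. Of the 4 genes examined that carry the signal from these receptors, the 2 that encode transcription factors were above 1 on the log2 scale. The share above 1 over all entries was 0.977%. Stat2 had 5.75 RPKM in WT and 27.8 RPKM in KO, and Irf9 had 10.5 and 29.5 RPKM. The kinase genes Jak1 (42.2 and 44.4 RPKM) and Tyk2 (6.64 and 7.49 RPKM) had log2 ratios of 0.073 and 0.15. Among the 6 interferon regulatory factor genes examined beside Irf9, Irf7 exceeded a log2 ratio of 1, with 5.24 RPKM in WT and 58.1 RPKM in KO. Irf3, which acts at once on RNA sensing, had 21.5 and 21.6 RPKM.

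The 3 other interferon genes examined that bind double-stranded RNA or related nucleic acid were Eif2ak2, Adar and Zbp1. Each was above 1 on the log2 scale, against 0.977% of all entries. They were chosen with earlier results of these data known. Eif2ak2, which encodes the kinase PKR, had 7.29 RPKM in WT and 16.9 RPKM in KO, with a log2 ratio of 1.11. Adar, which edits adenosine in double-stranded RNA, had 11.6 and 25.2 RPKM, and Zbp1, a sensor of left-handed nucleic acid, had 0.331 and 8.56 RPKM. The log2 ratio of Zbp1, 2.84, thus stood among those of the Oas genes. Of 3 feedback inhibitor genes, Usp18, whose product blocks the type I receptor, had 5.85 RPKM in WT and 88.0 RPKM in KO. Socs3 had 7.87 and 21.3 RPKM, a log2 ratio of 1.33, and Socs1 had 4.58 and 7.68 RPKM.

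**Figure D5:**
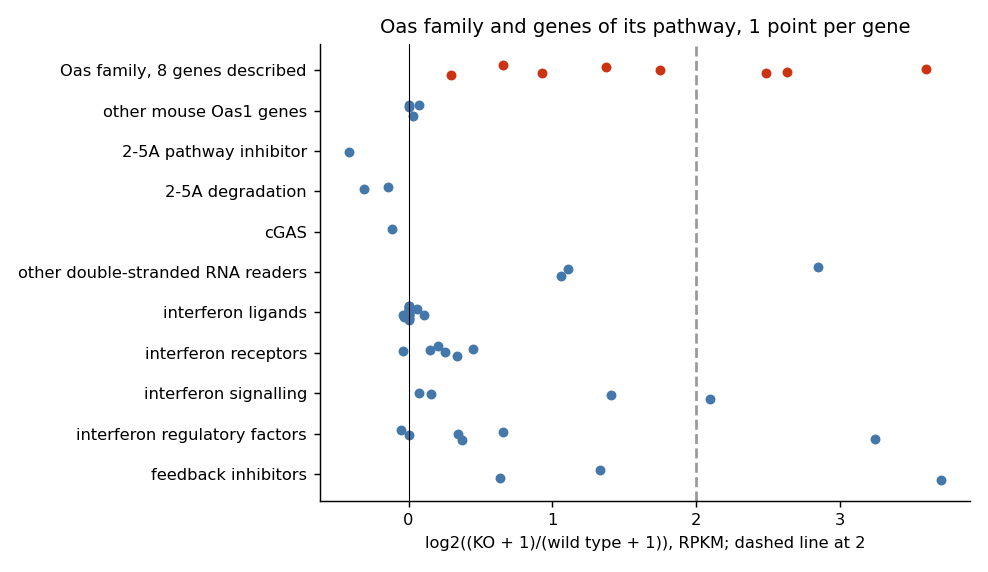
Log2 ratio of KO over WT (x axis, dashed line at 2) for the 8 Oas genes (red) and for lists of genes around them in the pathway (blue), 1 point per gene. Points of the interferon ligands, receptors, Abce1 and the 2-5A degradation genes lie between -0.41 and 0.45, and Stat2, Irf7, Usp18 and Zbp1 lie above 2.

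The entries whose pair of values lay nearest to that of Oasl2 were sought by the distance of log2(RPKM + 1) over the 2 libraries, outside the family. The 5 nearest were Cxcl1 (2.05 and 32.7 RPKM), Ifit3 (1.53 and 43.2 RPKM), Ifit1 (2.37 and 45.4 RPKM), Il6 (2.09 and 24.4 RPKM) and Rtp4 (2.39 and 23.5 RPKM). Their distances ran from 0.118 to 0.601. With only 2 points a profile, such likeness says little more than that both values were similar.

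In the human libraries, a separate experiment prepared without poly-A selection, all 4 OAS genes had a lower level under the label VCaP ERa than under VCaP. OAS1 stood at 13.3 RPKM for the label VCaP and at 1.03 RPKM for VCaP ERα, OASL had 7.44 and 0.711 RPKM, OAS3 had 5.42 and 0.788 RPKM, and OAS2 had 0.457 and 0.328 RPKM. A log2 ratio below -2 was reached by 2 of the 4, where 6.56% of all entries reached it, and below -1 were 3 of the 4, against 18.5%. The median of all entries expressed in both was -0.59. After centring on it OAS1 (-2.23) stayed below -2 while OASL was at -1.71 and OAS3 was at -1.25. OAS2 turned to 0.46, and the entries below -2 numbered 868 in place of 1701. Quantile normalization instead put OAS1 at -2.50, OASL at -2.15, OAS3 at -1.67 and OAS2 at -0.47, with 997 entries below -2. KLK2, a prostate gene that VCaP cells are known to express, had only 0.0264 RPKM in the library labelled VCaP, against 452 RPKM in the other. TFF1, known as an ERα target, had 1596 and 6.998 RPKM, which goes against the ERα label. Both labels name VCaP cells. Whether the labels were exchanged was not tested, nor was what cells each library holds. What the 2 libraries hold is therefore in doubt, and no direction of OAS with ERα is drawn from these values.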

How the data were processed

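Total RNA was extracted with Trizol, and poly-A+ libraries of MEFs were made by standard Illumina protocols. The authors computed and deposited 1 RPKM value per entry and library, with no scaling between libraries stated. The submitters' processing notes name CASAVA 1.8 and the builds mm10 and hg18. The aligner, the counting of reads that match several genes and the strandedness of the MEF libraries are not given in the sources used here. Of 20641 symbols on the same chromosome in RefSeq (GRCm38.p6), 11539 had a start 1 base above that in the files, so 1 was added to every start printed.

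Log2 ratios used a pseudocount of 1 RPKM, with every entry kept and thresholds of 2 and 1, as descriptions with no test, since each group is 1 library. The members, the gene lists and the markers were chosen with earlier results of these data known. Named genes were the members, Neat1, the genes of those lists, entries within 200 kb of the Oas clusters and the 5 entries nearest in profile to the member with the largest log2 ratio. Cxcl1, Ifit3, Ifit1, Il6 and Rtp4 came from the last rule. Some genes of these lists are not reported here. KLK2 and TFF1 were taken as a check of the human libraries after earlier results had been seen.

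For depth, RPKM multiplied by the GENCODE M21 transcript length in kb was examined for entries below 0.4. The values recurred in steps of 0.0159 in WT and 0.0168 in KO, with 44.8% and 47.0% of 2775 and 2731 entries within 0.1 of a whole number of steps, where evenly spread values would give 20%. Lengths that differ from those the authors used would blur the rest. A step was taken as 1 read and 2 reads as a pair, with a floor of 3 pairs. In the MEFs 11233 entries reached 1 RPKM in WT and 11118 in KO.

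The alternatives were a pseudocount of 0.1, centring on the median of the entries that reached 1 RPKM in WT and in KO, quantile normalization, a filter that kept entries reaching 1 RPKM in either library, 1 entry per symbol, and summing the Oas1 members. A log2 ratio was taken as unchanged within 0.58, and a count within 1.5 times. Scripts were tested on simulated data. Transcript stretches of 50 bases and reading frames came from GENCODE M21, with frames compared by global alignment. Promoter windows came from RefSeq. Python 3.11.15, numpy 2.4.6, pandas 2.3.3, scipy 1.17.1 and matplotlib 3.10.9 were used.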

Additional observations from a re-analysis of the deposited data

How the results depend on the processing

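All 47 log2 ratios of the members, over the values reported and the alternatives, were above 0. The members were chosen by these values. A changed pseudocount, the filter and 1 entry per symbol cannot change the sign of a ratio. Only centring and quantile normalization could have done so. The pseudocount was the only alternative that moved the log2 ratio of a single member by 0.58 or more. At 0.1 RPKM, the log2 ratios were 3.24 for Oas1a, 2.61 for Oas1b, 3.04 for Oas1g, 2.65 for Oas2, 2.40 for Oas3 and 3.98 for Oasl1, and the median of the members was 2.84. The number of members above 2 was then 7, with Oas1c below it at 0.57, and the entries of the whole data above 2, above 1 and below -1 numbered 118, 500 and 540 (52, 228 and 78 with 1). Centring, quantile normalization, the filter and 1 entry per symbol moved no log2 ratio of a member by 0.58 or more and no member count by more than 1.5 times. The filter removed Oas3, which has no value there. Summing the Oas1 members gave a log2 ratio of 2.52, against a median of 1.56. In the human libraries, centring moved OAS1 from -2.82 to -2.23, OASL from -2.30 to -1.71 and OAS3 from -1.84 to -1.25. With centring OAS2 reversed from -0.13 to 0.46, whereas with quantile normalization it was at -0.47 and OASL was at -2.15. The human entries below -2 numbered 1701, against 868 with centring, 997 with quantile normalization and 2958 with a pseudocount of 0.1, and those below -1 numbered 4786, against 2686 with centring and 3098 with quantile normalization. With a pseudocount of 0.1, OAS1, OASL and OAS3 were at -3.58, -3.22 and -2.64. No paired analysis was possible because each group holds 1 library. Depth limits Oas3, Oas1g and Oas2 most, with about 6, 10 and 11 read pairs in WT.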

Other observations

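The motif GAAANNGAAA was also counted in the windows of all genes with an entry. It was in 609 of 15715 such genes (3.88%). Among the entries with a log2 ratio above 2 it was in 11 of the 36 with a window (30.6%), and outside the Oas family in 10 of 33 (30.3%). These are counts of letters with no test, chosen after the Oas windows had been seen.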
